A study of Mus musculus with 4 samples.

Results

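The B-cell receptor signalling genes described here are Cd79a, Cd79b, Lyn, Syk, Btk, Blnk, Plcg2 and Cd22. They were chosen by name, 8 of the 32285 genes in the matrices, and all 8 were measured in both mice. Spleen cells came from 1 female pBIC10 mouse and 1 female pBIC mouse, each with a lymphoma that carries GFP, and went through 5′ droplet single-cell RNA sequencing, which gave 1 gene expression library and 1 T-cell receptor (TCR) library per mouse. What the pBIC10 genotype changes is not described in the labels, and neither are the ages of the mice or the promoters of their transgenes. Live GFP+ lymphoma cells had been sorted to 20% of each suspension and GFP- cells to 80%, so class sizes do not describe the spleen, and GFP itself was not among the measured genes. With 1 mouse per genotype there was no replicate and no test, genotype cannot be told apart from mouse or tumour, and all 95% intervals cover counting error only.

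The B-cell receptor is a membrane immunoglobulin held together with a pair of signalling chains, CD79A and CD79B. When antigen is bound, the kinase LYN phosphorylates the tails of these chains, the kinase SYK docks there and phosphorylates the adaptor BLNK, and BLNK brings the kinase BTK to the phospholipase PLCG2, which opens the calcium and protein kinase C branches. CD22 is an inhibitory lectin receptor that LYN also phosphorylates and that dampens the signal. CD79A, CD79B, BLNK and CD22 are known mainly from B cells, whereas LYN, SYK, BTK and PLCG2 also serve Fc and integrin receptors of macrophages and other myeloid cells.

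Promoter windows of the genes that passed 2-fold between the lymphomas are shown so that a reader can see what stands in front of the genes that differed. RefSeq (GRCm38.p6) gave windows of 300 bases, 250 before and 50 after the start, for 6 of the 8 genes, with a pair of starts for Syk, 7 windows in all; Cd79b and Lyn are named only. Capitals mark matches, on either strand, to the octamer ATGCAAAT, the EBF1 core (TCCC and GGGA with any 2 bases between them), the E-box CAGGTG or the PU.1 core GAGGAA, and matches to different motifs were allowed to overlap. The windows are Cd79a at chr7:24897247-24897546 on the plus strand, Syk at chr13:52583187-52583486 and chr13:52596632-52596931 on the plus strand, and Blnk at chr19:40994172-40994471 on the minus strand, each written 5′ to 3′ along its gene.
Cd79a: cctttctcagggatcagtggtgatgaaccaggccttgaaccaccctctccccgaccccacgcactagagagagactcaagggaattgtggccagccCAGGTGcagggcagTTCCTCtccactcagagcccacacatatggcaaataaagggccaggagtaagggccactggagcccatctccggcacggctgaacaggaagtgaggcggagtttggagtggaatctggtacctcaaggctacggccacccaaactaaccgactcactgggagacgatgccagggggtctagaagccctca
Syk, first start: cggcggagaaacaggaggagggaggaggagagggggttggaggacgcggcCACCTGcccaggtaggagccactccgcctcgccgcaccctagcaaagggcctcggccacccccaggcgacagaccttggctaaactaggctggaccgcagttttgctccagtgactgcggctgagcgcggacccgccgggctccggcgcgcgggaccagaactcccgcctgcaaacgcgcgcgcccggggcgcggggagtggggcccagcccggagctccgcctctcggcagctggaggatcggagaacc
Syk, second start: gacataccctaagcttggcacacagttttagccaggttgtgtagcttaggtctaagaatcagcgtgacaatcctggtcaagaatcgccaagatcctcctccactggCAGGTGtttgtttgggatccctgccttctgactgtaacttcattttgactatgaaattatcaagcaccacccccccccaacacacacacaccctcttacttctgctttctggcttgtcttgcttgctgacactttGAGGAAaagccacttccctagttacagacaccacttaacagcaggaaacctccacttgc
Blnk: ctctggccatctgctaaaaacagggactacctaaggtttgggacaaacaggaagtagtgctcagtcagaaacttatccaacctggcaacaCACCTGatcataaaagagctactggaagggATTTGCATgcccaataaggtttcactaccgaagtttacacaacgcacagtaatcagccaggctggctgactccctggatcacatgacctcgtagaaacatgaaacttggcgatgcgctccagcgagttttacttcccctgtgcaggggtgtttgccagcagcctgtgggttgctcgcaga
The E-box was present in 6 of the 7 windows, all but that of Btk, and in 20.2% of all 32851 windows of the table. The octamer was found in the Blnk window alone of these 7 and in 1.74% of all windows. The EBF1 core stood in the window of Cd22 alone of these 7 (0.904% of all windows), and the PU.1 core stood in the windows of Cd79a, Btk and the second Syk start (28.3% of all windows). These are descriptions of letters and not evidence of binding.

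Barcodes were sorted into classes by a few transcripts. Lymphoma barcodes carried at least 10 UMIs of Igkv3-1 in pBIC10, and at least 10 UMIs each of Ighv2-9 and Igkv8-30 in pBIC. A further pBIC10 class, called Ig-low here, had at least 1 UMI of Gstt1, fewer than 10 of Igkv3-1 and none of Cd3e. T barcodes had at least 1 UMI of Cd3e, and macrophage barcodes at least 1 of Csf1r and 5 of Lyz2. In pBIC10 this gave 2310 lymphoma, 820 Ig-low, 4124 T and 1930 macrophage barcodes, and in pBIC 1921 lymphoma, 10087 T and 589 macrophage barcodes. Barcodes that met more than 1 rule, 954 in pBIC10 and 711 in pBIC, were left out. Levels are CPM, the gene's UMIs summed over a class and scaled to 1000000 UMIs outside immunoglobulin genes; because reads start at the 5′ end, levels are not compared between genes. A ratio was called past 2-fold only when both classes together held at least 20 UMIs of the gene.

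The libraries held 147884282 UMIs in 14991 barcodes for pBIC10 and 166941618 UMIs in 18129 barcodes for pBIC, with 712 barcode sequences present in both. Median depth per barcode was 14266.5 UMIs in pBIC10 lymphoma, 2146.5 in Ig-low, 6276.5 in T and 11396 in macrophage barcodes. In pBIC it was 16219 in lymphoma, 6129 in T and 8739 in macrophage barcodes. The B-cell genes Pax5, Ebf1 and Ms4a1 together stood in T barcodes at 5.55% of their lymphoma level in pBIC10 and 4.44% in pBIC, and in macrophage barcodes at 3.53% and 2.76%. Every class had UMIs of all 6 B-lineage, 6 T and 7 macrophage markers, so the sums are given. The T markers summed to 93.8 CPM in lymphoma and 2885 CPM in T barcodes of pBIC10, and to 112 and 3674 CPM in those of pBIC. The B-lineage markers summed to 11536 CPM in lymphoma and 11057 CPM in macrophage barcodes of pBIC10, where Cd74, an antigen-presentation gene that macrophages also express, made up 10936 CPM of the macrophage sum. In pBIC they summed to 14103 CPM in lymphoma and 12284 CPM in macrophage barcodes, with Cd74 at 12106 CPM of the macrophage sum. Macrophage markers in macrophage barcodes summed to 2205 CPM in pBIC10 and 2131 CPM in pBIC, and 5 neutrophil markers summing to 6117 CPM in pBIC10 and 4557 CPM in pBIC. Of the macrophage barcodes, 49.6% in pBIC10 and 34.3% in pBIC had a UMI of Adgre1 or C1qa, genes of tissue macrophages. Ig-low barcodes carried neutrophil markers at 17166 CPM, against 761 CPM in pBIC10 lymphoma barcodes, and B-lineage markers at 7201 CPM, against 11536 CPM. A UMI of Pax5 or Ebf1 was found in 14.1% of Ig-low and 46.2% of lymphoma barcodes, at the unequal depths given above. Of the 181 Ig-low barcodes with 5000 UMIs or more, 23.8% had one. Ig-low barcodes are therefore called by their rule and not by a cell type.

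The lymphoma of pBIC10 had less transcript of the receptor's signalling chains and of Syk, and more Blnk, than the lymphoma of pBIC. Of the 8 genes, 3 were lower by at least 2-fold (Syk, Cd79a and Cd79b) and 1 was higher (Blnk). Of all 13127 genes with enough UMIs, 24.2% were lower and 13% higher by that fold. The other 4 genes lay within 2-fold. The median log2 ratio of the 8 was -0.67, against -0.31 for all genes.

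Both receptor chains were lower in the pBIC10 tumour. Cd79a (ENSMUSG00000003379) stood at 635 CPM (628 to 643) in pBIC10 lymphoma, from 27430 UMIs, and at 2198 CPM (2182.5 to 2214) in pBIC lymphoma, from 76555 UMIs. It was 3.46-fold lower in pBIC10 (3.41 to 3.51). Cd79b (ENSMUSG00000040592), its partner chain, stood at 437 CPM (431 to 443) in pBIC10 and 942 CPM (932 to 953) in pBIC, 2.16-fold lower in pBIC10 (2.12 to 2.20). With TMM scaling, which subtracted a shift of -0.28 from every log2 ratio of this comparison, Cd79b was at -0.83 and no longer past 2-fold. Among barcodes with 5000 UMIs or more, the interquartile range of Cd79a was 244 to 947 CPM in pBIC10 and 1265 to 3064 CPM in pBIC, with no overlap. That of Cd79b was 195 to 598 CPM in pBIC10 and 594 to 1331 CPM in pBIC, a narrow overlap.

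Among the kinases, Syk (ENSMUSG00000021457), which carries the signal from the receptor chains to the adaptor, differed most. It stood at 33.2 CPM (31.5 to 35.0) in pBIC10 lymphoma and 157 CPM (153 to 161) in pBIC lymphoma, 4.72-fold lower in pBIC10 (4.46 to 5.01). Lyn (ENSMUSG00000042228), the kinase that acts first, stood at 107 CPM (104 to 110) in pBIC10 and 176 CPM (172 to 181) in pBIC, 1.65-fold lower. Btk (ENSMUSG00000031264), the kinase that activates the phospholipase, stood at 34.5 CPM (32.7 to 36.3) in pBIC10 and 46.6 CPM (44.4 to 49.0) in pBIC, 1.35-fold lower. Lyn and Btk thus stayed within 2-fold, and their counting intervals did not overlap between the mice.

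Blnk (ENSMUSG00000061132), the adaptor between SYK and the phospholipase, went the other way. It stood at 258 CPM (253 to 263) in pBIC10 lymphoma and 107 CPM (104 to 110) in pBIC lymphoma, 2.41-fold higher in pBIC10 (2.32 to 2.503). Plcg2 (ENSMUSG00000034330), the phospholipase, stood at 79.9 CPM (77.3 to 82.6) in pBIC10 and 89.6 CPM (86.5 to 92.8) in pBIC. That is 1.12-fold lower in pBIC10, or a log2 ratio of -0.17, which TMM scaling turned to 0.11. Cd22 (ENSMUSG00000030577), the inhibitory receptor, stood at 81.2 CPM (78.6 to 84.0) in pBIC10 and 124 CPM (121 to 128) in pBIC, 1.53-fold lower. Over 10 other settings, the log2 ratio of Syk ran between -2.31 and -1.96, that of Cd79a between -1.84 and -1.51, and that of Blnk between 1.20 and 1.55.

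**Figure D1:**
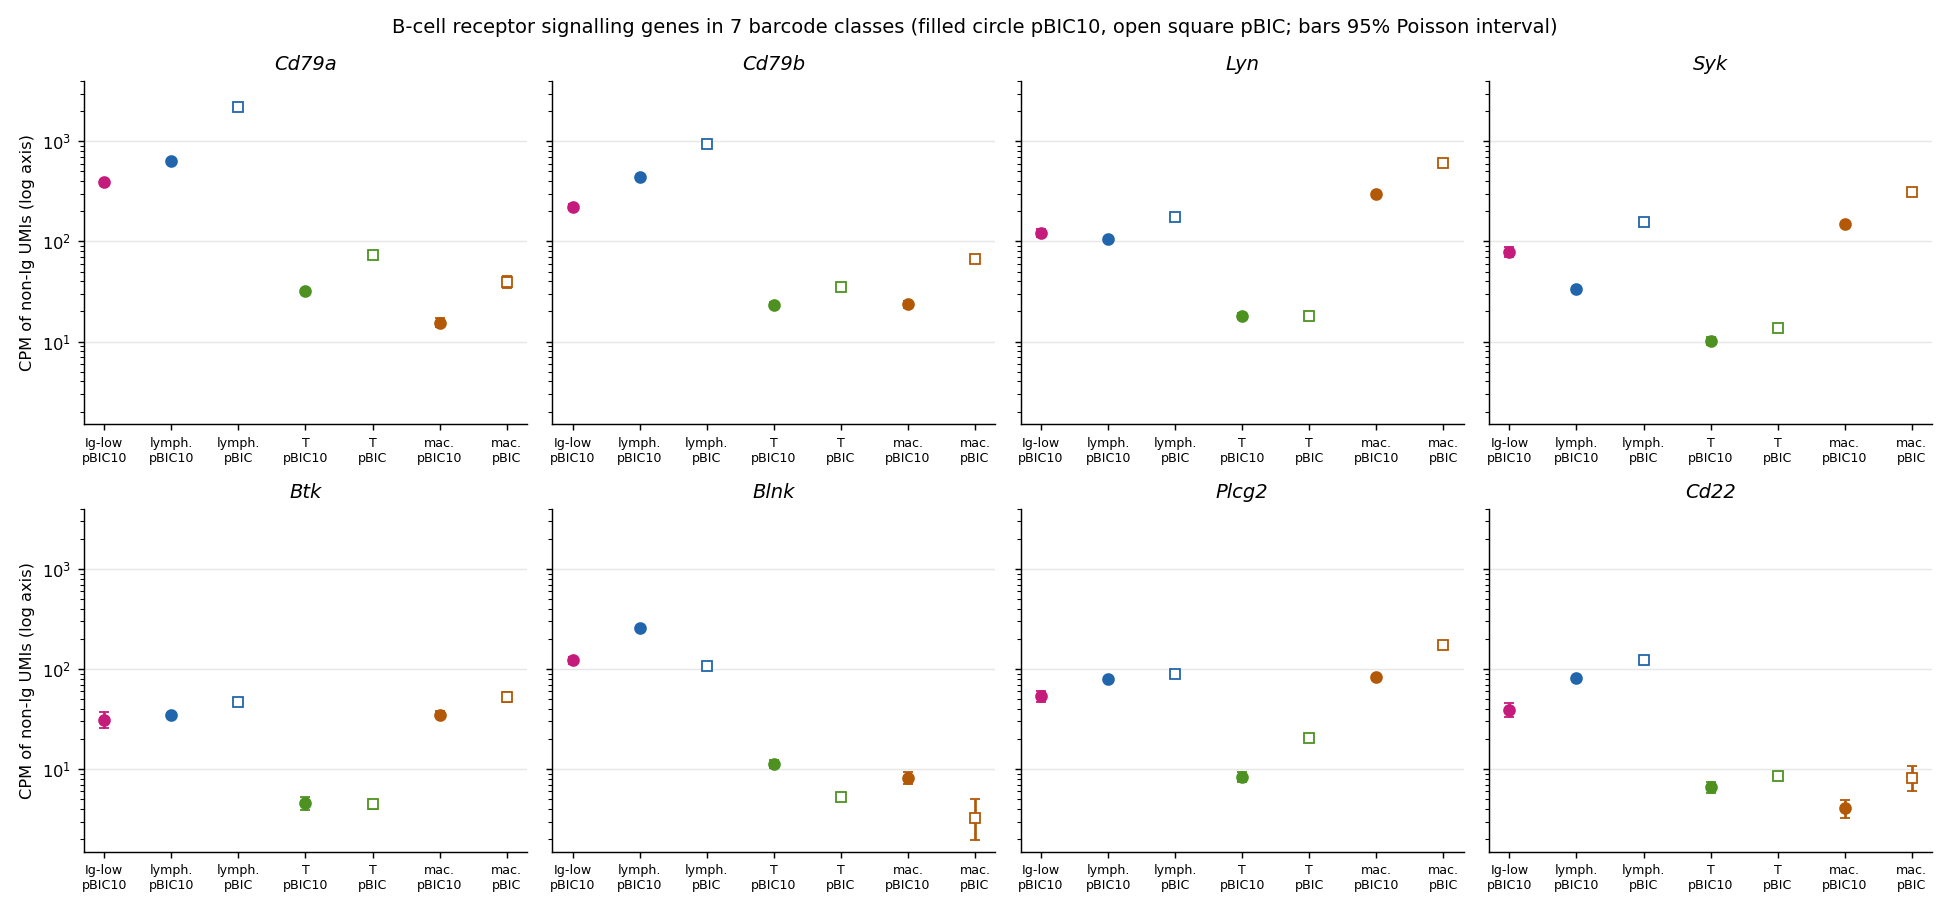
CPM of UMIs outside immunoglobulin genes on a log axis for each of the 8 genes in 7 classes, with pBIC10 as filled circles, pBIC as open squares and bars for the 95% Poisson interval. Cd79a, Cd79b, Blnk and Cd22 stand highest in lymphoma barcodes, while Lyn, Syk, Btk and Plcg2 are as high or higher in macrophage barcodes.

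The share of barcodes with a transcript followed the same order. To set depths equal, each barcode was thinned to 5000 UMIs, which left out 453 lymphoma barcodes of pBIC10 and 27 of pBIC. A Syk UMI was then found in 14.3% (12.7 to 15.9) of pBIC10 and 50.3% (48.0 to 52.6) of pBIC lymphoma barcodes, and in 35.2% and 81.9% without thinning. T barcodes had one in 3.35% in pBIC10 and 5.25% in pBIC after thinning. A Blnk UMI was found in 66.6% (64.4 to 68.7) of pBIC10 and 39.9% (37.6 to 42.1) of pBIC lymphoma barcodes, against 4.64% and 2.07% of T barcodes. Unthinned, these shares were 83.2% and 74.9% in lymphoma barcodes.

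Lymphoma barcodes stood above T barcodes in all members, and above macrophage barcodes in some. All 8 genes were at least 2-fold higher in lymphoma than in T barcodes in both mice, where 11.6% of 13875 genes were so in pBIC10 and 17% of 14274 genes in pBIC. The ratio in pBIC10 ranged from 3.26 for Syk to 22.7 for Blnk, and in pBIC from 4.42 for Plcg2 to 30.1 for Cd79a. The Syk ratio of pBIC10 was under 2-fold, at a log2 ratio of 0.37, when each barcode's own CPM was averaged, and at 0.77 when barcodes meeting several rules were kept. Against macrophage barcodes, 4 of the 8 genes were at least 2-fold higher in lymphoma in both mice, the same Cd79a, Cd79b, Blnk and Cd22, where 22.6% of genes were so in pBIC10 and 24% in pBIC. Lower in lymphoma by that fold were 2 genes in pBIC10, Syk and Lyn, and 1 in pBIC, Lyn, where 25.1% and 23.3% of genes were lower.

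The kinases and the phospholipase reached or passed the lymphoma level in macrophage barcodes. Lyn stood at 107 CPM in lymphoma and 298 CPM (291 to 305) in macrophage barcodes of pBIC10, and at 176 and 603 CPM (583 to 623) in those of pBIC. Syk stood at 33.2 CPM in lymphoma and 150.3 CPM (145 to 155) in macrophage barcodes of pBIC10, 4.53-fold lower in lymphoma. In pBIC it stood at 157 CPM in lymphoma and 311 CPM (296 to 325) in macrophage barcodes, 1.98-fold lower and so just short of the 2-fold mark. Btk stood at 34.5 and 35.2 CPM in lymphoma and macrophage barcodes of pBIC10, and at 46.6 and 52.7 CPM in those of pBIC. The intervals of these Btk ratios included no difference, at 0.979 (0.898 to 1.07) in pBIC10 and 0.884 (0.783 to 1.002) in pBIC. Plcg2 stood at 79.9 and 83.7 CPM in lymphoma and macrophage barcodes of pBIC10, and at 89.6 and 173 CPM in those of pBIC, 1.93-fold lower in lymphoma.

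The low levels of Cd79a, Cd79b and Blnk in T barcodes lay near those of other B-cell transcripts there. Relative to lymphoma, Cd79a in T barcodes stood at 4.98% in pBIC10 and 3.33% in pBIC, Cd79b at 5.31% and 3.75%, and Blnk at 4.41% and 4.92%. Divided by the share of the 3 B-cell tracer genes together, Pax5, Ebf1 and Ms4a1, these are 0.897 and 0.750 for Cd79a, 0.957 and 0.845 for Cd79b, and 0.795 and 1.11 for Blnk. The tracers taken singly spanned 0.888 (Ms4a1) to 1.96 (Ebf1) in pBIC10 and 0.920 (Ms4a1) to 1.39 (Pax5) in pBIC. None of the 3 genes lay above the range of the single tracers in T barcodes. Cd22 was within that range in pBIC10, at 1.46 times the tracer share, and above every single tracer in pBIC, at 1.54 times. Its interval in pBIC overlapped that of Pax5, at 6.85% (6.32 to 7.42) and 6.15% (5.61 to 6.72) of lymphoma.

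Syk, Lyn and Btk lay above every single tracer in T barcodes of both mice, and Plcg2 did so in pBIC. For Btk in pBIC10 the interval, 11.3% to 15.5% of lymphoma, overlapped that of Ebf1, 8.52% to 13.8%. Syk stood at 5.52 times the tracer share in pBIC10 and 1.98 in pBIC, Lyn at 3.04 and 2.30, Btk at 2.39 and 2.15, and Plcg2 at 1.89 and 5.10. Barcodes with a single Cd3e UMI, 14.1% of T barcodes in pBIC10 and 8.59% in pBIC, held 41.7% and 31.9% of the Syk UMIs of the class, and carried S100a8, a neutrophil gene, at 15761 and 4745 CPM. In barcodes with 3 or more Cd3e UMIs, S100a8 was at 396 and 111 CPM, and Syk at 5.37 CPM (4.65 to 6.18) in pBIC10 and 8.86 CPM (8.22 to 9.54) in pBIC. Plcg2 in those barcodes stood at 6.66 CPM (5.85 to 7.55) in pBIC10 and 18.03 CPM (17.1 to 18.99) in pBIC. That was 8.34% and 20.1% of its lymphoma level, where the tracers were at 4.09% and 3.38%. In the same barcodes Syk stood at 16.2% of its lymphoma level in pBIC10 and 5.65% in pBIC. Lyn stood at 10.6% and 6.53%, and Btk at 9.30% and 6.24%.

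**Figure D2:**
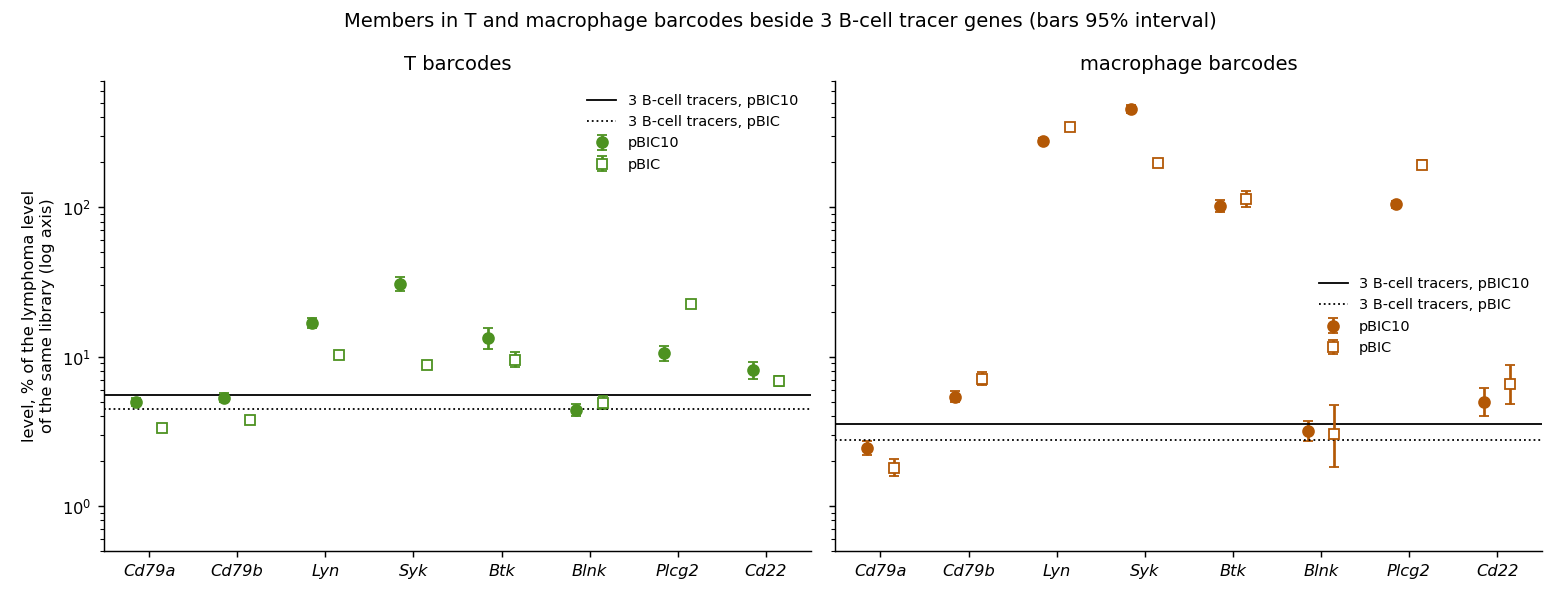
Level of each gene in T barcodes (left) and macrophage barcodes (right) as a percent of the lymphoma level of the same library, on a log axis, with pBIC10 as filled circles, pBIC as open squares, bars for the 95% counting interval and lines for 3 B-cell tracer genes together. Cd79a, Cd79b and Blnk lie near the tracer lines in T barcodes, and Lyn, Syk, Btk and Plcg2 lie at 102% or more of lymphoma in macrophage barcodes.

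In macrophage barcodes, Cd79a stood at 0.691 times the tracer share in pBIC10 and 0.653 in pBIC, and Blnk at 0.901 and 1.10. Cd79a thus lay below every single tracer in both mice, though its counting interval overlapped that of Ebf1. Ebf1 was the lowest tracer, at 0.816 times the tracer share in pBIC10 and 0.765 in pBIC. Cd79b stood at 1.53 times that share in pBIC10 and 2.58 in pBIC, with levels of 23.6 CPM (21.6 to 25.7) and 67.1 CPM (60.6 to 74.0). Cd22 was at 1.42 and 2.39 times it, from only 92 and 48 UMIs. Among single tracers, Pax5 reached 2.02 and 1.79 times the joint share, so in pBIC10 Cd79b and Cd22 lay within the tracers' spread, and in pBIC both lay above it. The pBIC intervals of Cd79b, 6.43% to 7.86% of lymphoma, and Cd22, 4.84% to 8.74%, still overlapped that of Pax5, 3.34% to 7.00%.

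Between the mice, T barcodes of pBIC10 had 1 of the 8 genes higher by 2-fold, Blnk, and 2 lower, Cd79a and Plcg2, where 10.3% of 14449 genes were higher and 10.1% lower. Blnk stood at 11.4 CPM in pBIC10 T barcodes and 5.27 CPM in pBIC T barcodes, while its tracer share would give 14.3 and 4.75 CPM. Cd79a stood at 31.6 and 73.1 CPM, against 35.3 and 97.5 CPM at the tracer share. Both differences had the direction seen between the lymphomas. Cd79a was within 2-fold (log2 -0.85) when each barcode's own CPM was averaged, and Blnk was within it with doublet calls kept or with no barcode filter, where the log2 ratio was 0.96 both times. Plcg2 stood at 8.40 CPM (7.52 to 9.36) in pBIC10 T barcodes and 20.3 CPM (19.3 to 21.3) in pBIC T barcodes, against 4.44 and 3.98 CPM at the tracer share, and was 2.41-fold lower in pBIC10 (2.14 to 2.73). It was within 2-fold, at a log2 ratio of -0.50, when each barcode's own CPM was averaged, and at -0.70 when barcodes meeting several rules were kept. With 3 or more Cd3e UMIs required, it was at -1.44. Lyn stood at 17.99 CPM in pBIC10 and 17.96 CPM in pBIC T barcodes.

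Macrophage barcodes of pBIC10 had 6 of the 8 genes lower by 2-fold than those of pBIC, and Blnk higher, where 12.8% of 11876 genes were lower and 4.29% higher. Cd79a stood at 15.5 CPM in pBIC10 and 39.6 CPM in pBIC, against 22.4 and 60.6 CPM at the tracer share. Cd79b stood at 23.6 and 67.1 CPM, against 15.4 and 26.0 CPM, and Cd22 at 4.06 and 8.19 CPM, against 2.87 and 3.43 CPM. Blnk stood at 8.21 and 3.24 CPM, against 9.10 and 2.95 CPM, from only 186 and 19 UMIs. All of these differences had the direction seen between the lymphomas. Syk stood at 150.3 CPM in pBIC10 and 311 CPM in pBIC macrophage barcodes (2.07-fold lower), Lyn at 298 and 603 CPM (2.02-fold lower), and Plcg2 at 83.7 and 173 CPM (2.06-fold lower). Btk, at 35.2 and 52.7 CPM, was 1.497-fold lower. These folds sit at the mark: with TMM scaling, which subtracted a shift of -0.33, 2 of the 6 stayed past it, Cd79a and Cd79b. With a UMI of Adgre1 or C1qa required, 958 barcodes of pBIC10 and 202 of pBIC, the lower genes past the mark were 2, Cd79b and Cd22, and Blnk was no longer past it; Syk was then at a log2 ratio of -0.95, Lyn at -0.98 and Plcg2 at -0.96. Neutrophil markers were higher in macrophage barcodes of pBIC10, as given above, while erythroid markers summed to 71.4 CPM in pBIC10 and 614 CPM in pBIC. Ace, a gene of patrolling monocytes chosen after its values were seen, stood at 54.4 CPM in pBIC10 and 240.4 CPM in pBIC barcodes without Adgre1 or C1qa, and at 24.6 and 59.1 CPM in those with either. The part of these differences in the result was not tested.

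The Ig-low barcodes of pBIC10 had a mixed profile. Against pBIC10 lymphoma barcodes, Syk was at least 2-fold higher and Blnk and Cd22 were at least 2-fold lower, where 20.1% of 12413 genes were higher and 5.26% lower. Syk stood at 78.9 CPM (70.4 to 88.2) in Ig-low and 33.2 CPM in lymphoma barcodes, 2.38-fold higher (2.10 to 2.69). Blnk stood at 122 CPM (112 to 134) and 258 CPM, 2.11-fold lower, and Cd22 at 39.1 CPM (33.2 to 45.7) and 81.2 CPM, 2.08-fold lower. Cd79b, at 219 and 437 CPM, was 1.99-fold lower, and Cd79a, at 394 and 635 CPM, 1.61-fold lower. Lyn stood at 121 CPM in Ig-low and 107 CPM in lymphoma barcodes, Btk at 31.3 and 34.5 CPM, and Plcg2 at 53.4 and 79.9 CPM.

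Subsets of the Ig-low barcodes differed in these values and in their neutrophil transcripts. Ig-low barcodes with 5 or more UMIs of S100a8 and S100a9, 190 of the 820, had Syk at 176 CPM and Lyn at 216 CPM, whereas the other 630 had Syk at 55.9 CPM (1.68-fold over lymphoma) and Lyn at 97.7 CPM. Those 630 had no gene past 2-fold in either direction, a setting chosen after seeing the data. Blnk was just inside the mark there, at 0.511 times lymphoma (0.462 to 0.563), as were Cd22 at 0.515 and Cd79b at 0.534. In the 116 with a UMI of Pax5 or Ebf1, also chosen after seeing the data, Cd79a stood at 947 CPM, 1.49-fold over lymphoma, Cd79b at 546 CPM, Blnk at 193 CPM, 0.747 times lymphoma, and Syk at 87.2 CPM, 2.63-fold over lymphoma. S100a8 was at 600.4 CPM there, against 6987 CPM in all Ig-low and 328 CPM in lymphoma barcodes. The ratios of these 116 set a selected group against all 2310 lymphoma barcodes, of which 46.2% had a Pax5 or Ebf1 UMI. The part of this unlike selection in the ratios was not tested. The part of neutrophil transcripts in the Syk level was not tested. In the 99 with 3 or more Gstt1 UMIs, S100a8 was at 509 CPM, Cd79a at 789 CPM (1.24-fold over lymphoma) and Syk at 59.0 CPM (1.78-fold), and no gene passed 2-fold. Markers of other cell types were also higher in Ig-low than in lymphoma barcodes. Erythroid markers summed to 781 CPM in Ig-low and 80.5 CPM in lymphoma barcodes, megakaryocyte markers to 413 and 4.47 CPM, macrophage markers to 331 and 79.7 CPM, and basophil markers to 152 and 4.72 CPM. Their part in the values was not tested.

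Across the Ig-low ranges of the Igkv3-1 count and over the class boundary, Blnk and Syk ran in opposite directions, while within the lymphoma ranges neither was lower at higher counts. All barcodes under 10 Igkv3-1 UMIs carry Gstt1 by the Ig-low rule, whereas those above were not selected for it (76.6% with a Gstt1 UMI at 10 to 99), so the boundary combines both selections. Barcodes with 0, 1 to 4 and 5 to 9 Igkv3-1 UMIs, numbering 96, 512 and 212, had Blnk at 62.7, 117 and 155 CPM. Those with 10 to 99 UMIs and with 100 or more but under 1000, numbering 1246 and 1039, had it at 221 and 270 CPM. The ranges are of raw counts and so also differ in depth, with medians of 1679.5, 1965.5, 2997, 6651.5 and 30563 UMIs. The part of depth in these orders was not tested. Syk over the same 5 ranges stood at 150.5, 77.4, 56.9, 31.6 and 33.5 CPM, and S100a8 at 9597, 7637, 4651, 879 and 95.7 CPM. Cd22 stood at 22.6, 36.8, 49.8, 61.6 and 88.8 CPM. Cd79a had no such order, at 507, 366, 413, 736 and 614 CPM. The 25 barcodes with 1000 UMIs or more had Cd79a at 250.1 CPM (221 to 282), Blnk at 282 CPM and Syk at 39.4 CPM. Cd22 was at 55.9 CPM (42.8 to 71.8) in those 25, so its order did not extend to the last range.

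Close to the threshold the classes were alike in some genes. Barcodes just inside the lymphoma rule, with 10 to 19 Igkv3-1 UMIs (361 barcodes), had Cd79a at 443 CPM, Cd79b at 292 CPM, Blnk at 230 CPM and Syk at 32.7 CPM, while those just outside, with 5 to 9, had them at 413, 278, 155 and 56.9 CPM. Cd22 stood at 38.5 CPM (29.8 to 48.8) just inside and 49.8 CPM (37.6 to 64.6) just outside. In pBIC, barcodes whose lower segment count was 10 to 19 (533) had Cd79a at 2370 CPM and Syk at 164 CPM, and those at 5 to 9 (283) had 2054 and 119 CPM. At the Gstt1 threshold of the Ig-low rule, barcodes with 1 UMI (619) had Cd79a at 217 CPM and Syk at 87.1 CPM, and those with 2 (102) had 364 and 84.3 CPM.

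**Figure D3:**
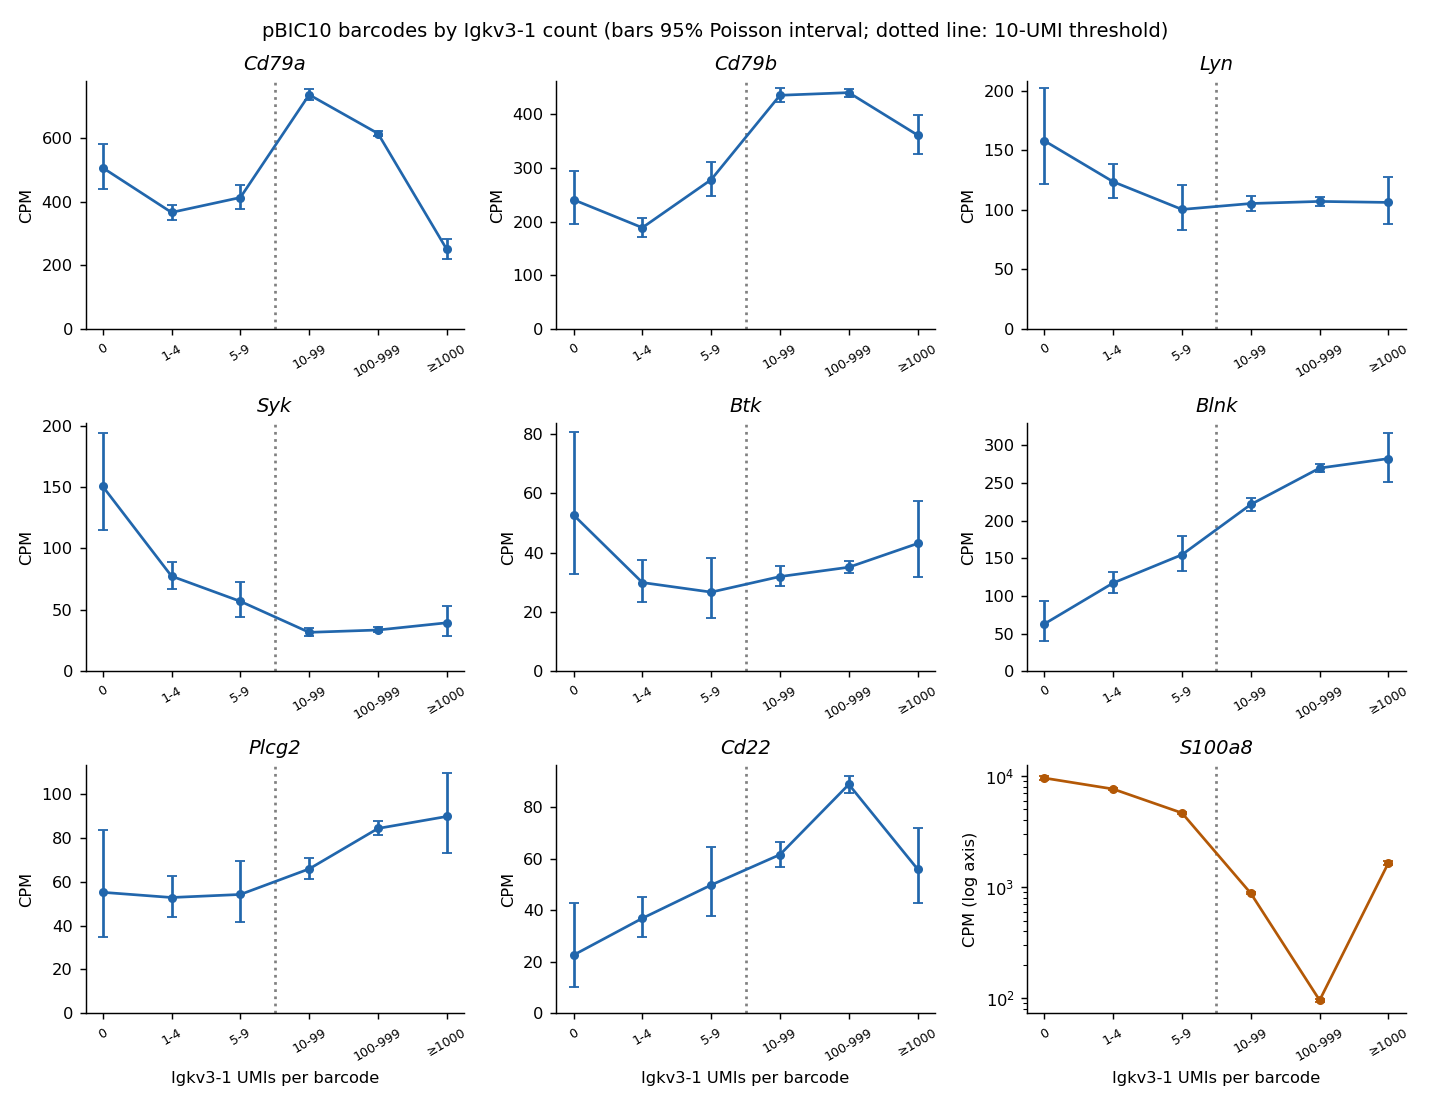
CPM of the 8 genes (linear axes) and of the neutrophil gene S100a8 (log axis) in pBIC10 Ig-low and lymphoma barcodes by their Igkv3-1 UMI count, with 95% Poisson intervals and a dotted line at the 10-UMI threshold; the ranges left of it hold Gstt1-selected Ig-low barcodes alone. Blnk is higher, and Syk and S100a8 are lower, right of the line than left of it; the last range holds 25 barcodes.

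Cd79a and Cd79b were found together mainly in lymphoma barcodes. After thinning to 5000 UMIs, both had a UMI in 67.9% (65.7 to 70.0) of 1857 pBIC10 and 95.6% (94.6 to 96.5) of 1894 pBIC lymphoma barcodes. In T barcodes both were found in 2.38% (1.82 to 3.06) in pBIC10 and 4.05% (3.58 to 4.56) in pBIC. Macrophage barcodes had both in 0.755% (0.391 to 1.31) in pBIC10 and 4.33% (2.63 to 6.68) in pBIC, and the 181 Ig-low barcodes of that depth in 30.9% (24.3 to 38.2). In pBIC10 lymphoma, 15.9% had Cd79a alone, 9.59% Cd79b alone and 6.62% neither, and in pBIC lymphoma these were 3.85%, 0.422% and 0.106%.

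Within lymphoma barcodes the genes were found together about as often as the product of their single shares. Over the 28 pairs, the ratio of the observed share to that product ran between 0.959 and 1.14 in pBIC10 and between 0.958 and 1.18 in pBIC, with 21 and 24 pairs above 1. A gene found in nearly all barcodes, as Cd79a in 99.5% of those of pBIC, can give ratios only close to 1. In T barcodes it had a median of 2.78 in pBIC10 and 2.62 in pBIC, and 26 and 28 of the 28 pairs were above 1. For Cd79a with Cd79b it was 3.31 in pBIC10 and 1.74 in pBIC. The detections in T barcodes were thus concentrated in some barcodes; whether these hold a second cell was not tested, and doublet calls had been removed. In macrophage barcodes the commonest pair was Syk with Lyn, in 40.1% of barcodes in pBIC10 and 69.7% in pBIC.

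The number of the 8 genes found per barcode averaged 3.53 ± 1.30 in pBIC10 and 4.39 ± 1.35 in pBIC lymphoma barcodes (SD over barcodes, which are not replicates). It was 2.34 ± 1.51 in Ig-low barcodes. T barcodes averaged 0.397 ± 0.776 in pBIC10 and 0.594 ± 0.924 in pBIC, and macrophage barcodes 2.01 ± 1.04 and 2.97 ± 1.16. At least 5 of the 8 were found in 21.1% of pBIC10 and 47.5% of pBIC lymphoma barcodes, against 0.525% and 0.834% of T barcodes.

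**Figure D4:**
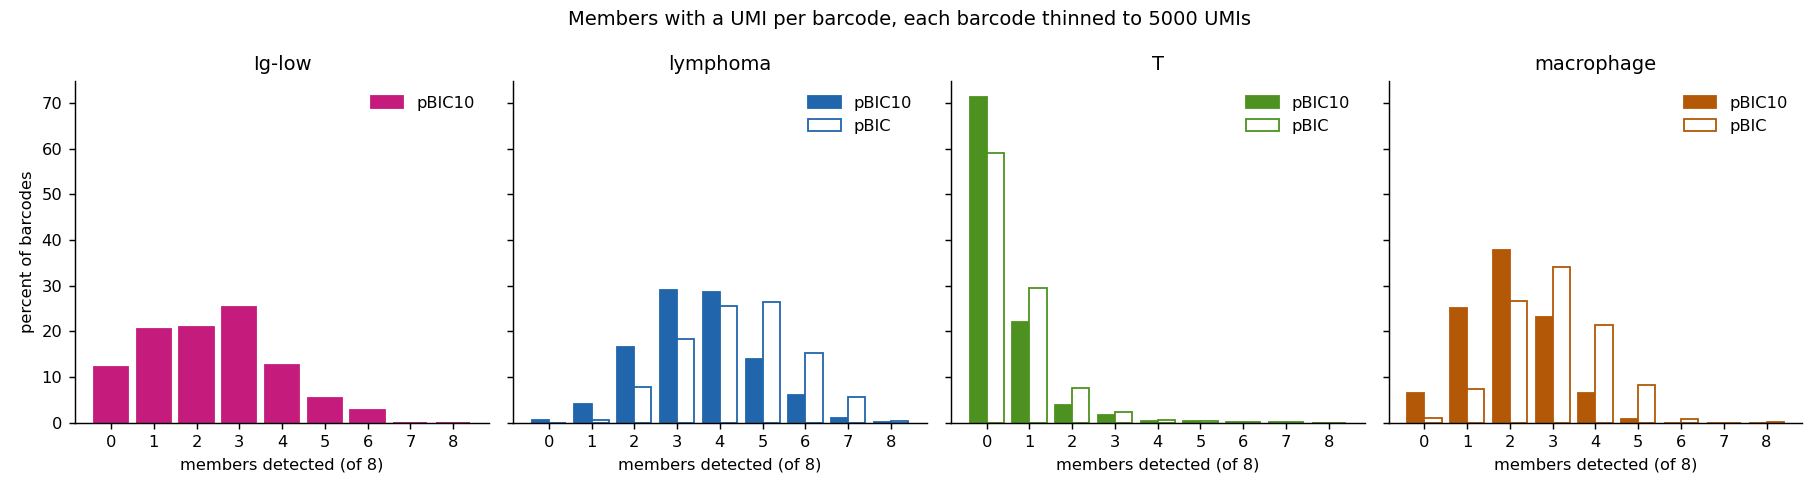
Percent of barcodes by how many of the 8 genes had a UMI, each barcode thinned to 5000 UMIs, with pBIC10 filled and pBIC open. Lymphoma barcodes centre on 3 to 4 genes in pBIC10 and 4 to 5 in pBIC, and most T barcodes have none (71.3% and 59.1%).

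Cd79a and Cd79b were lower in lymphoma barcodes with a UMI of Mki67, a gene of cycling cells, in both mice. In pBIC10, the 1078 barcodes with one had Cd79a at 517 CPM and the 1232 without at 851 CPM (0.607-fold, 0.593 to 0.622). In pBIC, the 1247 with Mki67 had it at 2010 CPM and the 674 without at 2700 CPM (0.744-fold, 0.733 to 0.756). Cd79b was at 0.814-fold and 0.735-fold. Syk was at 1.06-fold (0.949 to 1.18) in pBIC10 and 0.882-fold (0.833 to 0.936) in pBIC. Lyn was at 0.975-fold in pBIC10 and 0.818-fold in pBIC, Btk at 1.08-fold and 0.864-fold, and Cd22 at 1.15-fold and 0.816-fold. Plcg2 was at 1.31-fold (1.22 to 1.41) and 0.991-fold, and Blnk at 1.09-fold and 0.982-fold. Finding an Mki67 UMI depends on depth, which had medians of 27170.5 UMIs with and 8937 without Mki67 in pBIC10, and 18738 and 13414 in pBIC.

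Across the 7 class profiles, the genes fell into a pair of groups. Pearson's r on log2(CPM + 1) over the 7 profiles, given as a description because the profiles share libraries, was 0.968 for Cd79a with Cd79b, 0.988 for Cd79a with Cd22 and 0.857 for Cd79a with Blnk. Among Syk, Lyn, Btk and Plcg2 it ran between 0.901 (Syk with Btk) and 0.966 (Syk with Lyn). Between the groups it was lower, from -0.014 (Syk with Blnk) to 0.580 (Cd79b with Btk), with Cd79a and Syk at 0.104. Of 7702 genes, those most like Cd79a were Blk, a B-cell kinase of the LYN family, with an r of 0.998, Scd1 at 0.995, Ms4a1, which encodes CD20, at 0.995, Fam129c at 0.994 and Bank1, a B-cell adaptor, at 0.994. Those most like Syk were Rreb1 (0.978), Cfp, the complement protein properdin (0.975), Ceacam1 (0.975), Mgrn1 (0.974) and Gtf2a1 (0.971).

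Other genes of the pathway were taken from lists of 15 positive, 12 downstream and 14 inhibitory genes, 41 in all. Between the lymphomas, 4 of the 41 were at least 2-fold higher in pBIC10 and 19 lower, where 13% of all genes were higher and 24.2% lower, with a median log2 ratio of -0.85 against -0.31 for all genes. Of the positive genes 2 were higher and 7 lower, of the downstream genes 1 higher and 6 lower, and of the inhibitors 1 higher and 6 lower.

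Among the positive genes, those lower in pBIC10 included a complement receptor and a tetraspanin. Cr2, the complement receptor, had no UMI in pBIC10 lymphoma and 168 in pBIC lymphoma, at least 69.4-fold lower at a floor of 3 counts in the pBIC10 class. Cd81, the tetraspanin, stood at 46.9 CPM in pBIC10 and 783 CPM in pBIC, 16.7-fold lower (16.0 to 17.5). Bank1 stood at 28.3 and 114 CPM, 4.04-fold lower. Fyn, a kinase of the LYN family, stood at 24.9 CPM in pBIC10 and 2.38 CPM in pBIC, 10.4-fold higher (8.35 to 13.2), and Pik3ap1, an adaptor for phosphoinositide 3-kinase, at 136 and 35.6 CPM, 3.82-fold higher.

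Downstream, the gene past 2-fold upward was Rasgrp3, an activator of RAS, at 51.3 CPM in pBIC10 and 9.25 CPM in pBIC, 5.55-fold higher. Malt1, a protease of the NF-kappaB branch, stood at 25.6 CPM in pBIC10 and 137.5 CPM in pBIC, 5.37-fold lower. Itpr3, a calcium release channel, was 5.24-fold lower, and Nfatc1, a transcription factor of the calcium branch, 4.43-fold lower, at 86.3 CPM in pBIC10 and 382 CPM in pBIC.

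Of the inhibitors, Fcgr2b, the inhibitory Fc receptor, stood at 160.2 CPM in pBIC10 and 29.3 CPM in pBIC, 5.47-fold higher (5.12 to 5.85). Ptpn22, a phosphatase acting on kinases of the LYN family, stood at 8.96 and 93.2 CPM, 10.4-fold lower. Siglecg, a lectin receptor of the same family as CD22, stood at 30.4 and 243 CPM, 7.98-fold lower, and Cd5 at 3.26 and 27.3 CPM, 8.37-fold lower.

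A list of 9 T-cell counterparts of these genes was set beside them, since T-cell transcripts could enter any class. Of these, 3 were higher in pBIC10 lymphoma and 4 lower, beside the same shares of all genes (13% and 24.2%). Lcp2, the SLP-76 adaptor related to BLNK, stood at 34.8 CPM in pBIC10 and 3.96 CPM in pBIC, 8.78-fold higher, Plcg1, the relative of PLCG2, at 15.9 and 3.53 CPM, 4.50-fold higher, and Cd3g at 63.4 and 27.2 CPM, 2.33-fold higher. Cd247 stood at 0.625 and 2.15 CPM, Zap70 at 0.996 and 2.18 CPM, and Lat at 3.01 and 6.06 CPM. Because barcodes with a Cd3e UMI were left out of the lymphoma class, the levels of T-cell genes in it were lowered by the rule.

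**Figure D5:**
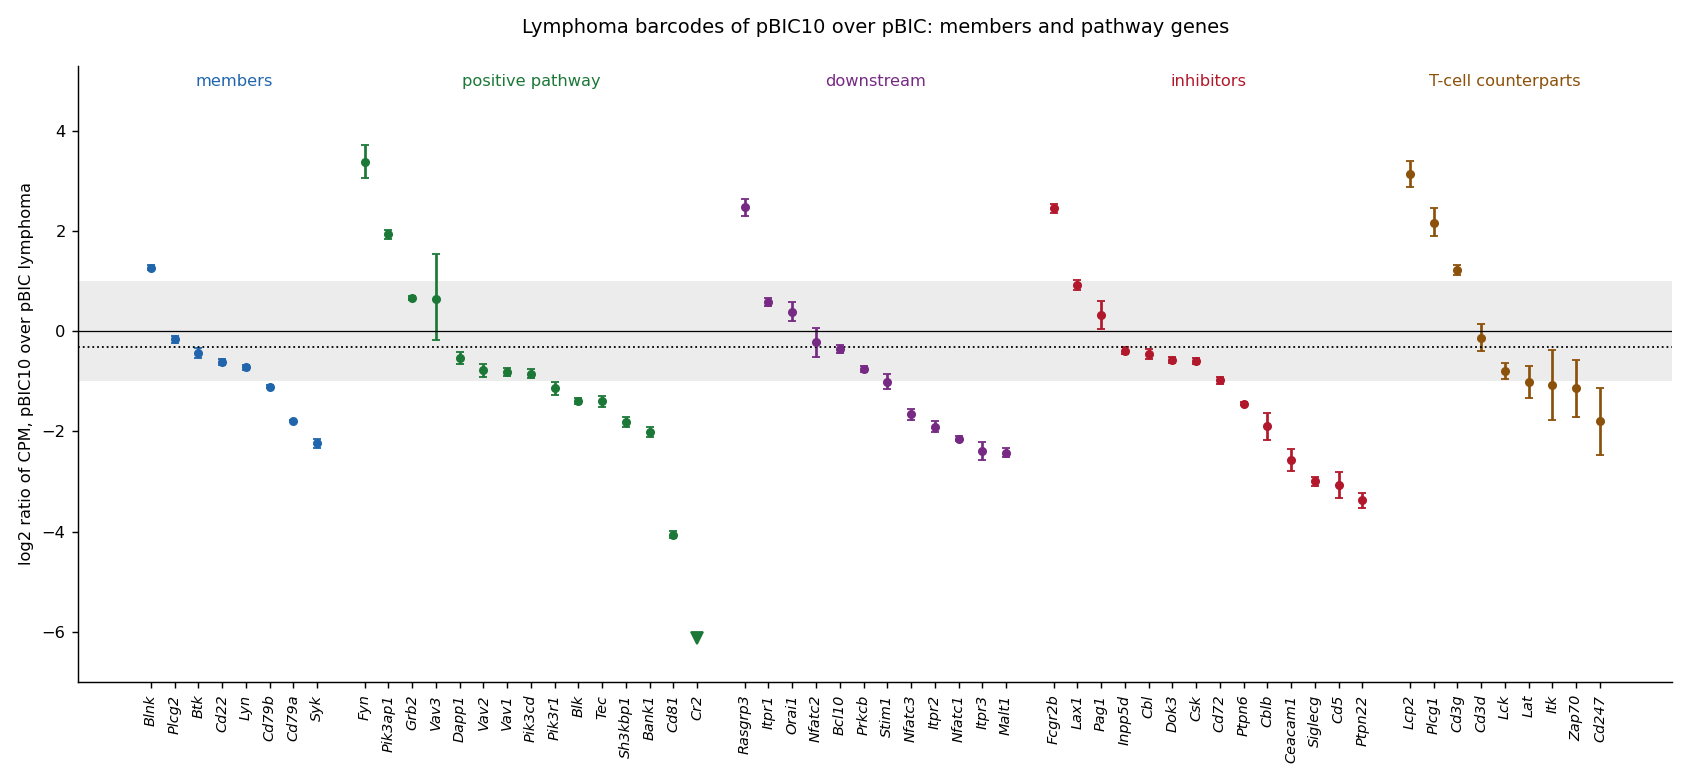
Log2 ratio of CPM, pBIC10 over pBIC lymphoma barcodes, for the 8 members and the genes of 4 pathway lists, with 95% counting intervals; the grey band spans 2-fold, the dotted line is the median of all genes (-0.31) and the triangle for Cr2 marks a bound. Blnk is the member above the band and Syk, Cd79a and Cd79b are below it.

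In Ig-low against lymphoma barcodes of pBIC10, 9 of the 40 pathway genes with enough UMIs were at least 2-fold higher (22.5%) and 4 lower, beside 20.1% higher and 5.26% lower of all genes. Vav3, an exchange factor, stood at 9.83 CPM in Ig-low and 0.857 CPM in lymphoma barcodes, Cd81 at 173 and 46.9 CPM (3.70-fold higher), and Pik3r1 at 36.1 and 16.9 CPM (2.14-fold higher). Blk stood at 40.3 and 84.1 CPM (2.08-fold lower). Orai1, a calcium channel, was 2.59-fold higher and Malt1 2.11-fold higher, while Rasgrp3 was 2.68-fold lower. Of the inhibitors, Pag1 was 5.58-fold, Cblb 4.65-fold and Ptpn22 3.15-fold higher, and Lax1 3.19-fold and Cd72 2.27-fold lower. Of the T-cell counterparts, 6 of 9 were higher, beside the same 20.1% of all genes, among them Lat by 8.12-fold, Cd3d by 6.09-fold and Lcp2 by 2.87-fold. The neutrophil, erythroid, megakaryocyte, macrophage and basophil markers given for this class were higher too, and their part was not tested.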

How the data were processed

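The authors deposited matrices of UMI counts per gene and barcode, from 5′ libraries. The build was GRCm39 and the software Cell Ranger 3.0.1, per the submitters' processing notes; the matrix headers give cellranger 5.0.1 instead, which was not resolved. The deposited TCR contig tables, with read and UMI counts, served only to flag barcodes with a TRB chain or contig. Called cells alone were deposited (lowest total 657 UMIs in pBIC10, 500 in pBIC), so free RNA could not be modelled from empty droplets.

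A barcode was kept when it had 200 genes or more and less than 10% of its UMIs from mitochondrial genes. Scrublet (scanpy 1.11.5, expected rate 0.08) was used at a fixed score of 0.3, because its automatic threshold of 0.718 called 0 doublets in pBIC; 396 barcodes of pBIC10 (2.70%) and 496 of pBIC (2.78%) were removed, leaving 14271 and 17375. Counts were summed per class (Python 3.11.15, pandas 2.3.3, numpy 2.4.6, scipy 1.17.1; figures with matplotlib 3.10.9) and divided by the UMIs outside immunoglobulin genes. Intervals are exact Poisson for levels, Clopper-Pearson for shares and conditional binomial for ratios. TMM factors came from edgeR 4.0.16, with no test. The ratio code was tested on simulated data. The 8 members, the class rules, the gene lists and the alternatives were chosen with earlier results of these data known, and 4 alternatives (Ig-low without neutrophil transcripts, barcodes of 5000 UMIs or more, Ig-low barcodes with 3 or more Gstt1 UMIs joined to the lymphoma, Ig-low barcodes with Pax5 or Ebf1) were added after seeing the data. Some genes of the lists first chosen are not reported here and were left out of the lists, tracers, rules and profile ranking. Beyond the members, genes were named by a rule: up to 3 per list and direction past 2-fold with at least 50 UMIs, ranked by the interval bound nearest to no difference, and the 5 profiles most like Cd79a and Syk among genes with at least 100 UMIs and 20 CPM in a class.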

Additional observations from a re-analysis of the deposited data

Results flagged for a closer look

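Cd22 differed in opposite directions between barcodes with and without Mki67 in the 2 lymphomas: barcodes with an Mki67 UMI were at 1.15-fold (1.07 to 1.23) of those without in pBIC10, and at 0.816-fold (0.765 to 0.871) in pBIC. With 1 library per genotype this difference was not tested.

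Barcodes that met no class rule, 4133 in pBIC10 and 4067 in pBIC, were in none of the classes compared and still held these transcripts. Cd79a stood there at 115 CPM (109.8 to 121) in pBIC10 and 482 CPM (472 to 492) in pBIC, and Syk at 118 CPM (112 to 123) and 100.3 CPM (95.9 to 105), above the floor of 3 counts. Their median depth was 1533 UMIs in pBIC10 and 1292 in pBIC. The 283 pBIC barcodes just short of the lymphoma rule, with a lower segment count of 5 to 9, had Cd79a at 2054 CPM. The part of such barcodes in the Cd79a level of the group without a class was not tested.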

How the results depend on the processing

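Between the lymphomas, 2 members were lower with TMM scaling and 5 with a fold of 1.5 (38.5% of all genes), against 3 otherwise. For Ig-low over lymphoma, the number higher was 0 (1 otherwise) with TMM, with Gstt1 at least 3, without neutrophil transcripts and with 5000 UMIs or more. The number lower there was 0 (2 otherwise) with no barcode filter, with Gstt1 at least 3, with Pax5 or Ebf1 required and without neutrophil transcripts, and 4 with overlapping barcodes kept and with a fold of 1.5 (11.6% of all genes). For pBIC lymphoma over macrophage, 2 were lower with a mean of per-barcode CPM and 3 with a fold of 1.5 (30.9% of all genes), against 1. For T barcodes between the mice, the number lower was 0 with a mean of per-barcode CPM and 1 with overlapping barcodes kept, against 2, and the number higher was 0 with doublet calls kept and with no barcode filter, against 1. For macrophage barcodes between the mice, 2 were lower with TMM and with Adgre1 or C1qa required, against 6, and 0 were higher with that requirement, against 1.

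The share with Cd79a and Cd79b together depended on depth. At 2000 UMIs it was 35.3% in pBIC10 and 77.2% in pBIC lymphoma, 14.1% in Ig-low, 1.46% in pBIC10 and 2.14% in pBIC T, and 1.69% in pBIC macrophage barcodes. Without thinning it was 81.0% in pBIC10 and 99.4% in pBIC lymphoma, 15.2% in Ig-low, 3.52% in pBIC10 and 7.08% in pBIC T, and 2.95% in pBIC10 and 10.4% in pBIC macrophage barcodes. With overlapping barcodes kept it was 64.9% in pBIC10 lymphoma, 15.9% in Ig-low, 7.30% in pBIC10 and 10.5% in pBIC T, and 2.57% in pBIC10 macrophage barcodes, and with doublet calls kept 4.88% in pBIC T barcodes. The mean number of members found in lymphoma barcodes was 2.04 in pBIC10 and 2.95 in pBIC at 2000 UMIs, and 5.07 and 6.45 without thinning. The cause of these shifts was not tested beyond what each setting changes by construction. Another 175 of these counts, shares and means stayed within 1.5 times of the count given or within the interval or SD. Of the log2 ratios of single members, 306 stayed within the counting interval under an alternative and 214 did not. An alternative Ig-low rule that used a gene not reported here was not run. No paired analysis was possible because each genotype has 1 library, and for the same reason no replicate could be left out.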
